A study of Mus musculus with 4 samples.

Results

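The 9 Hedgehog pathway genes described here are Gli1, Gli2, Gli3, Ptch1, Smo, Gas1, Hhip, Boc and Cdon. They were taken by name, as the genes measured by a probe set whose single gene symbol is one of these, and all 9 were found, each with 1 probe set, among 19938 measured genes. Total RNA was measured on 1 Affymetrix array for each of 4 mouse cell samples. Mouse embryonic fibroblasts (MEF), grown in serum-containing medium, and 2 lines of induced pluripotent stem (iPS) cells, 178B5 and 492B4, shared DBA/2, C57BL/6 and 129S4 ancestry. The line v6.5 of embryonic stem (ES) cells was an F1 of 129 and C57BL/6, so its strain differed from that of the other samples. All 3 pluripotent lines were kept in ES cell medium on SNL feeder cells treated with mitomycin C, a different culture from that of MEF. The labels do not say how the iPS lines were reprogrammed, and each line was measured on a single array.

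Hedgehog ligands are secreted lipid-modified proteins that bind the receptor Ptch1. Without ligand Ptch1 holds the membrane protein Smo inactive, and ligand binding releases Smo, which acts at the primary cilium on the Gli transcription factors. Gas1, Boc and Cdon are co-receptors that present ligand to Ptch1, whereas Hhip binds and sequesters ligand. Gli1 is an activator, Gli2 acts mainly as an activator and Gli3 mainly as a repressor once it is processed. Gli1, Ptch1 and Hhip are themselves target genes, and fibroblasts of the embryo are a common cell system for the study of this pathway.

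In the deposited table each probe set was centred on its median over the 4 arrays. A value is therefore a difference between arrays on a log scale, taken as log2, and not a level, and genes cannot be compared for abundance or set against background. Because the centre is the midpoint of the middle 2 arrays, those 2 arrays often carry values of equal size and opposite sign. The cell identity of the samples was checked with marker genes. All 15 fibroblast markers were lower on average in the pluripotent lines than in MEF, 9 of them by limma's test. Of 11 pluripotent markers 10 passed as higher. Over all genes 9.71% were called lower and 7.90% higher. Among the 3 lines, the fibroblast markers averaged 0.65 on the ES array, against -0.75 on iPS 178B5 and -1.06 on iPS 492B4. The 8 primitive endoderm markers averaged -1.06 on the ES array, against 1.15 and 0.52 on the iPS arrays. In bulk RNA, fewer cells of a type cannot be told apart from less RNA per cell.

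The first comparison asked which Hedgehog genes separate pluripotent cells from fibroblasts. The co-receptor genes Gas1 and Boc, the transducer gene Smo and the effector gene Gli3 fell in the pluripotent lines by 1.93 to 3.11 log2. The receptor gene Ptch1 rose by 1.39 log2. Gli1, Gli2, Hhip and Cdon did not pass the test. Of the 9 genes 5 were called by limma (difference of 1 log2 or more with an adjusted p under 0.05), 1 higher and 4 lower, where 17.6% of all genes were called, 7.90% higher and 9.71% lower. With the arrays centred on reference genes the calls over all genes were 1202 higher and 2555 lower, in place of 1576 and 1936, and the median difference over all genes moved from -0.10 to -0.30 log2, while the 9 genes gave the same counts. The spread in this fit came from the 3 lines, and the single MEF array was given the same spread.

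**Figure D1:**
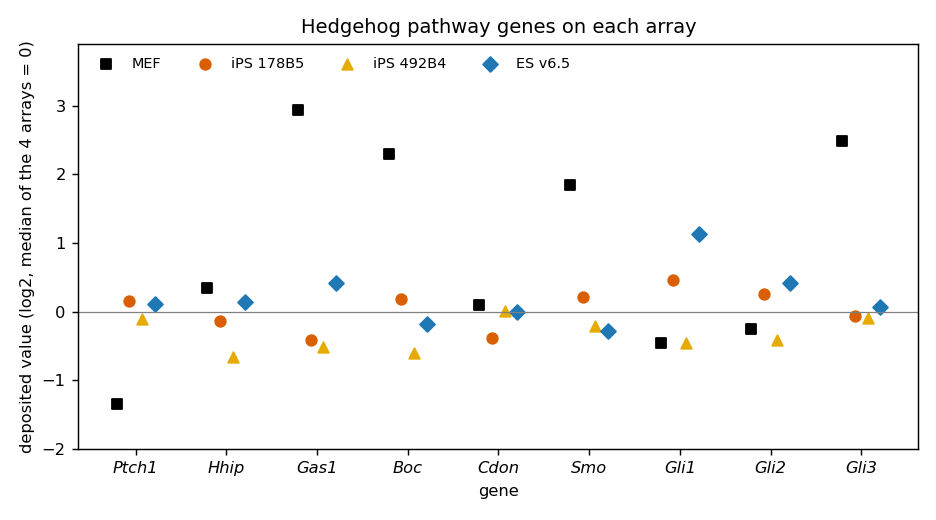
Deposited value (log2, centred so that the median of the 4 arrays is 0) of each gene on each array, with 1 point per array. MEF lies apart from the 3 lines for Ptch1 (below, at -1.34) and for Gas1, Boc, Smo and Gli3 (above, between 1.84 and 2.94), and within their range for Gli1 and Gli2.

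Promoter sequences are shown for the called genes that move in opposite directions. RefSeq promoter windows (build GRCm38.p6) were found for 7 of the 9 genes, all but Gli1 and Boc. The 250 bases before the start site lie at chr13:63565736-63565985, minus strand for Ptch1, which rose. They lie at chr13:15463473-15463722, plus strand for Gli3, at chr6:29735247-29735496, plus strand for Smo and at chr13:60177536-60177785, minus strand for Gas1, which fell. Capitals mark matches on either strand to CCACCC, the core of the Gli binding site, or to GGGCGG, the GC box.
Ptch1: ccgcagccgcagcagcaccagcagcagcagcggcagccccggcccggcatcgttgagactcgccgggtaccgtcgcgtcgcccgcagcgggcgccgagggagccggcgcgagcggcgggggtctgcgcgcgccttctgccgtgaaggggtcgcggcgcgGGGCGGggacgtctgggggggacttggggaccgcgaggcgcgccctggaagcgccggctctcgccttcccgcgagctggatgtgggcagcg
Gli3: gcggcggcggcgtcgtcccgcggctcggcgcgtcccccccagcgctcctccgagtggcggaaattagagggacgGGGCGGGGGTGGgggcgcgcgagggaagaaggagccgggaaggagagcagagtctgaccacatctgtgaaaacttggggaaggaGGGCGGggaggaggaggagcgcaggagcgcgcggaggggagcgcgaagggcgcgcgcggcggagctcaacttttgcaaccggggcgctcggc
Smo: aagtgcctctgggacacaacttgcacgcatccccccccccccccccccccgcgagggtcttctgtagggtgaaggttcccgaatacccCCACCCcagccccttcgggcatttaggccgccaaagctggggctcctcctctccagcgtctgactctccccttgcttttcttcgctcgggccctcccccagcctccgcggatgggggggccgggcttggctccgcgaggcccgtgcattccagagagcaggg
Gas1: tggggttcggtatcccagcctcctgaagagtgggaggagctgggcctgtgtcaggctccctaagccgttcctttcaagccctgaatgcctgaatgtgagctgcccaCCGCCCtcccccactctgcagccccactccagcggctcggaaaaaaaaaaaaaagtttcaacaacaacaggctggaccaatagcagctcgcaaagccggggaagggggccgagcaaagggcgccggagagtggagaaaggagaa

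The full Gli site GACCACCCA, searched on both strands, was found in 0.225% of all 32851 promoter windows of this length and in 0 of the 7. With the fifth base left free (GACCNCCCA) the share was 0.868%, again with 0 of the 7. The core CCACCC, which is contained in the full site, occurred in 28.1% of all windows. Those of Gli3 and Smo held 1 match each and those of Ptch1 and Gas1 held 0. The GC box GGGCGG occurred in 32.7% of all windows, with 2 matches for Gli3, 1 each for Ptch1 and Gas1 and 0 for Smo. The Ptch1 window held 41 CpG dinucleotides and 78.4% G or C, and 1.09% of all windows held as many CpG. Gli3 had 34 CpG, Smo 15 and Gas1 10, against a median of 6 over all windows. Such a match is a description of letters and not of binding.

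Ptch1, the receptor that restrains Smo, stood at -1.34 on the MEF array, 0.16 on iPS 178B5, -0.11 on iPS 492B4 and 0.11 on ES. The MEF array was the low one, and the 3 lines lay within 0.27 of each other. Ptch1 was higher in 3 of 3 lines, with a rise of 1.39 ± 0.14 log2 (SD, n = 3 lines; 95% interval 0.92 to 1.85, adjusted p = 0.0116), a 2.62-fold difference. Over all genes, 5.84% had a larger rise. Without iPS 178B5, where calls over all genes went from 3512 to 1357, the rise was 1.34 log2 and was not called (adjusted p = 0.0611).

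Hhip, the decoy receptor and also a target gene, read 0.35 on MEF, -0.14 on iPS 178B5, -0.66 on iPS 492B4 and 0.14 on ES. MEF was the highest array, though only 0.21 log2 above ES. The mean difference was -0.57 log2 (SD 0.41, n = 3; 95% interval -1.49 to 0.35, adjusted p = 0.302), so a change in either direction was not resolved.

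Among the co-receptors Gas1, a membrane-anchored protein that binds ligand, had the widest contrast. Its values were 2.94 on MEF, -0.42 on iPS 178B5, -0.51 on iPS 492B4 and 0.42 on ES. MEF was far above every line, ES came next and both iPS lines were lowest, 0.09 log2 apart. Gas1 fell by 3.11 log2 (SD 0.51, n = 3; 95% interval -4.24 to -1.98, adjusted p = 0.0136), an 8.63-fold difference, and 1.31% of all genes had a lower value. Without iPS 178B5, where calls over all genes went from 3512 to 1357, the difference was -2.98 log2 and was not called (adjusted p = 0.0517).

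Boc, an immunoglobulin-family co-receptor, measured 2.30 on MEF, 0.18 on iPS 178B5, -0.61 on iPS 492B4 and -0.18 on ES. MEF stood clear of the lines, which spread over 0.79 log2 with the 2 iPS lines at either end. Boc fell by 2.50 log2 (SD 0.39, n = 3; 95% interval -3.39 to -1.60, adjusted p = 0.0132), a 5.65-fold difference. Cdon, the relative of Boc in the same family, differed little between arrays, at 0.09 on MEF, -0.39 on iPS 178B5, 0.01 on iPS 492B4 and -0.01 on ES. Its difference was -0.22 log2 (SD 0.22, n = 3; 95% interval -0.81 to 0.37, adjusted p = 0.52). The lower bound of that interval lies above the upper bound for Boc.

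Smo, the transducer, stood at 1.84 on MEF, 0.21 on iPS 178B5, -0.21 on iPS 492B4 and -0.28 on ES. Every line lay well below MEF, and ES and iPS 492B4 were 0.07 log2 apart. Smo fell by 1.93 log2 (SD 0.27, n = 3; 95% interval -2.59 to -1.27, adjusted p = 0.0121), a 3.82-fold difference, and Smo, Boc and Gli3 were called without each line in turn.

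Of the 3 Gli genes 1 was called, Gli3. It read 2.48 on MEF, -0.07 on iPS 178B5, -0.10 on iPS 492B4 and 0.07 on ES. The lines were nearly level with each other, with an SD of 0.09 against a median SD of 0.155 over all genes. Gli3 fell by 2.52 log2 (SD 0.09, n = 3; 95% interval -2.92 to -2.11, adjusted p = 0.00548), a 5.72-fold difference, and had the smallest adjusted p of the 9 genes.

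Gli1 read -0.46 on MEF, 0.46 on iPS 178B5, -0.46 on iPS 492B4 and 1.13 on ES. ES was highest and iPS 178B5 second, while iPS 492B4 matched MEF, so the groups overlapped. The mean difference was 0.84 log2 (SD 0.80, n = 3; 95% interval -0.87 to 2.54, adjusted p = 0.405). The SD over the lines was the largest of the 9 genes, and 1.66% of all genes had a larger one. Gli2 followed the same order among the lines, at -0.26 on MEF, 0.26 on iPS 178B5, -0.42 on iPS 492B4 and 0.42 on ES, with MEF inside their range. Its difference was 0.35 log2 (SD 0.44, n = 3; 95% interval -0.64 to 1.34, adjusted p = 0.549).

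**Figure D2:**
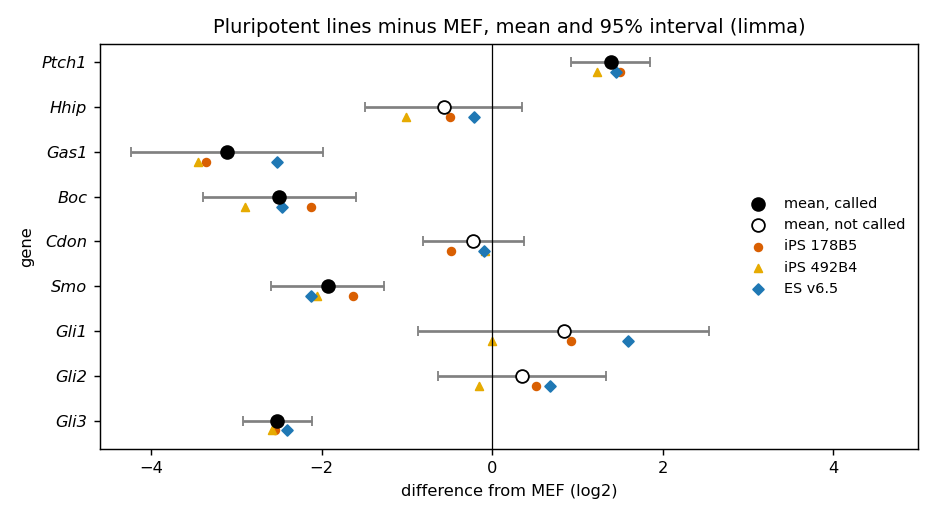
Difference from MEF (log2) for each gene. Large circles are the mean of the 3 pluripotent lines with limma's 95% interval, filled where called, and small symbols are the single lines. Gas1, Boc, Smo and Gli3 lie to the left of 0 and Ptch1 to the right in all lines, and the Gli1 interval runs from -0.87 to 2.54.

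With iPS and ES kept as separate groups, where the only spread is that between the 2 iPS lines, the same 5 of the 9 genes were called for iPS against MEF and for ES against MEF. In this fit iPS differed from MEF for 21.1% of all genes (9.94% called higher, 11.2% called lower) and ES for 20.0% (9.14% called higher, 10.9% called lower). With reference gene centring the calls over all genes were 1531 higher and 2866 lower in place of 1981 and 2235 for iPS, and 1428 and 2831 in place of 1823 and 2167 for ES. Both comparisons share the MEF array. Gas1 was -3.41 log2 in iPS (adjusted p = 0.00192) and -2.52 log2 in ES (adjusted p = 0.00644). Gli3 was -2.57 and -2.41 log2, Boc -2.51 and -2.47 log2, Smo -1.84 and -2.12 log2, and Ptch1 1.36 and 1.45 log2. For Gli1 the difference from MEF was 0.46 log2 in iPS (95% interval -0.71 to 1.63, adjusted p = 0.447) and 1.59 log2 in ES (0.24 to 2.94, adjusted p = 0.0924). Hhip was -0.75 log2 in iPS (adjusted p = 0.102) and -0.21 log2 in ES (adjusted p = 0.698).

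The next comparison set both iPS lines against ES. By limma 0 of the 9 genes were called, and 0 of all 19938 genes (0%), with 1 of the 9 and 3079 of all genes at an unadjusted p under 0.05. With equal array medians or reference gene centring 44 and 42 of all genes were called, and 0 of the 9. The 1 gene was Gas1, lower in iPS by 0.89 log2 (95% interval -1.28 to -0.49, adjusted p = 0.155). Gli1 had the largest difference, 1.13 log2 lower in iPS (-2.30 to 0.04, adjusted p = 0.335), made of -0.67 log2 for iPS 178B5 and -1.59 log2 for iPS 492B4. Ptch1 differed by -0.09 log2 (-0.59 to 0.41) and Gli3 by -0.15 log2 (-0.53 to 0.23). These intervals rest on the spread between the 2 iPS lines, and the single ES array was given the same spread. They therefore set no bound on a difference between iPS and ES cells. Smo was the 1 gene above 0, at 0.28 log2 (-0.36 to 0.91). Fibroblast markers moved in the same direction as Gas1, with 13 of 15 lower in both iPS lines than in ES and a median of -1.67 log2, where both iPS lines were lower for 47.7% of all genes. The 6 neural markers had a median of -0.08 log2 in iPS minus ES, with 4 below 0 and a range of -3.40 log2, for Olig2, to 0.56 log2. Olig2 stood at 3.17 on ES, where Gli1 was also highest, whereas Nes was lowest there, at -0.56. The part of these markers in the values of Gas1 and Gli1 was not tested.

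**Figure D3:**
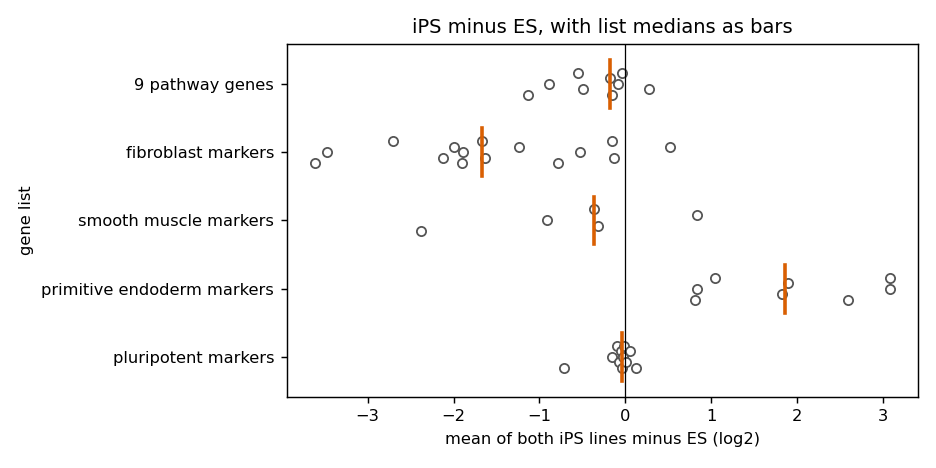
Mean of both iPS lines minus ES (log2), with 1 point per gene and a bar at each list's median. The 9 Hedgehog genes lie between -1.13 and 0.28, the fibroblast markers have a median of -1.67, and the primitive endoderm markers have a median of 1.87.

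Between the 2 iPS lines, with 1 array each and no test, iPS 178B5 was above iPS 492B4 for 8 of the 9 genes and for 53.1% of all genes. The differences were 0.92 log2 for Gli1, 0.79 for Boc, 0.68 for Gli2, 0.51 for Hhip, 0.42 for Smo, 0.27 for Ptch1, 0.09 for Gas1 and 0.03 for Gli3, and -0.39 for Cdon. The median absolute difference over all genes was 0.143, and 0.883% of genes differed more than Gli1.

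Other genes of the pathway were described by role, with lists drawn from textbook knowledge of Hedgehog signalling. Of 9 genes for ligands and their release 0 were higher and 2 lower by limma's test, with a median of -0.19 log2 beside -0.10 log2 over all genes. The shares over all genes were 7.90% called higher and 9.71% called lower. Hhat, the acyltransferase that attaches palmitate to the ligands, fell by 2.50 log2 (SD 0.15, n = 3; adjusted p = 0.00549). Disp1, which releases lipid-modified ligand from the cell, fell by 1.74 log2 (SD 0.22, n = 3; adjusted p = 0.0116). Without iPS 178B5, where calls over all genes went from 3512 to 1357, Disp1 was at -1.79 log2 and not called (adjusted p = 0.0514). The ligand genes showed small differences and none was called. Shh was at -0.10 log2 (95% interval -0.84 to 0.64), Ihh at -0.34 log2 (-0.89 to 0.20) and Dhh at -0.19 log2 (-0.60 to 0.21). The sign for Shh turned to 0.04 log2 without iPS 492B4. Since the table holds no levels, whether the ligand genes were above background on any array could not be read.

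Of 6 measured genes for other receptors and binding proteins 1 was higher and 2 lower, with a median of -1.12 log2. Over all genes the shares were 7.90% higher and 9.71% lower. The glypican genes Gpc6 and Gpc4, which encode cell-surface heparan sulfate proteoglycans, fell by 2.60 log2 (adjusted p = 0.00554) and 2.06 log2 (adjusted p = 0.0136). Lrp2, a large endocytic receptor that can bind Shh, rose by 2.51 log2 (SD 0.74, n = 3; adjusted p = 0.0476). Its values were -2.25 on MEF, 0.60 on iPS 178B5, 0.76 on iPS 492B4 and -0.60 on ES. The rise of Lrp2 lost its call when iPS 178B5 was left out (adjusted p = 0.119), when iPS 492B4 was left out (0.0838) or with equal array medians (0.0537). Leaving out iPS 178B5 took the calls over all genes from 3512 to 1357.

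Of 22 regulators of Gli and Smo inside the cell 1 was higher and 1 lower, with a median of -0.24 log2. Over all genes 7.90% were higher and 9.71% lower. Among the 22, 5 lay above 0 and 17 below. The largest fall was that of Gpr161, at -1.25 log2 (SD 0.43, n = 3). Gpr161 was below MEF on all 3 lines but was not called. Sufu, which restrains the Gli proteins, stood at -0.37 log2 (95% interval -0.80 to 0.07, adjusted p = 0.186), and Kif7, a ciliary kinesin, at -0.17 log2 (-0.60 to 0.26, adjusted p = 0.501). Arrb2, a beta-arrestin that binds activated Smo, rose by 2.24 log2 (adjusted p = 0.0185), and Mgrn1, a ubiquitin ligase that acts on Smo, fell by 1.08 log2 (adjusted p = 0.013). Without iPS 178B5, where calls over all genes went from 3512 to 1357, neither was called (adjusted p = 0.0632 and 0.0691). With reference gene centring, where 2555 of all genes were lower in place of 1936, 6 regulators were lower and 1 higher. Without ES, where 2235 of all genes were lower, 2 regulators were lower. Of 16 genes for the cilium and the Evc complex, where Smo signals, 0 were called in either direction, and the median was -0.09 log2. Absence of a call is not absence of a difference. Of the 16, 5 lay above 0 and 11 below, from -1.02 log2 for Evc to 1.73 log2 for Mks1 (SD 0.64, n = 3). Mks1 was above MEF on each line, by 1.96 log2 on iPS 178B5, 2.23 log2 on iPS 492B4 and 1.01 log2 on ES. With reference gene centring 1 cilium gene was lower. With equal array medians, where 1700 of all genes were higher, 1 was higher, and without ES 1 was higher and 1 lower.

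Reported targets of Hedgehog signalling, a list without Gli1, Ptch1 and Hhip, moved in both directions, with 3 of 23 higher, 8 lower and a median of -1.03 log2. Over all genes 7.90% were called higher and 9.71% lower. The growth factor gene Fgf4 rose by 4.73 log2 (SD 0.19, n = 3; adjusted p = 0.00466) and Mycn, a Myc family transcription factor, by 4.41 log2 (SD 0.36, n = 3; adjusted p = 0.00548). Both are also genes of pluripotent cells. Jag2, a Notch ligand, rose by 2.00 log2 (adjusted p = 0.026). The forkhead factor Foxc2 fell by 3.83 log2 (adjusted p = 0.00548), the limb gene Hoxd13 by 3.68 log2 (adjusted p = 0.0121) and the cyclin gene Ccnd2 by 2.51 log2 (adjusted p = 0.0357). Without iPS 178B5, where calls over all genes went from 3512 to 1357, the counts were 2 higher and 4 lower. Jag2, at 1.96 log2 (adjusted p = 0.0863), and Ccnd2, at -2.59 log2 (adjusted p = 0.0926), were then not called. Many of these genes answer to other pathways as well.

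**Figure D4:**
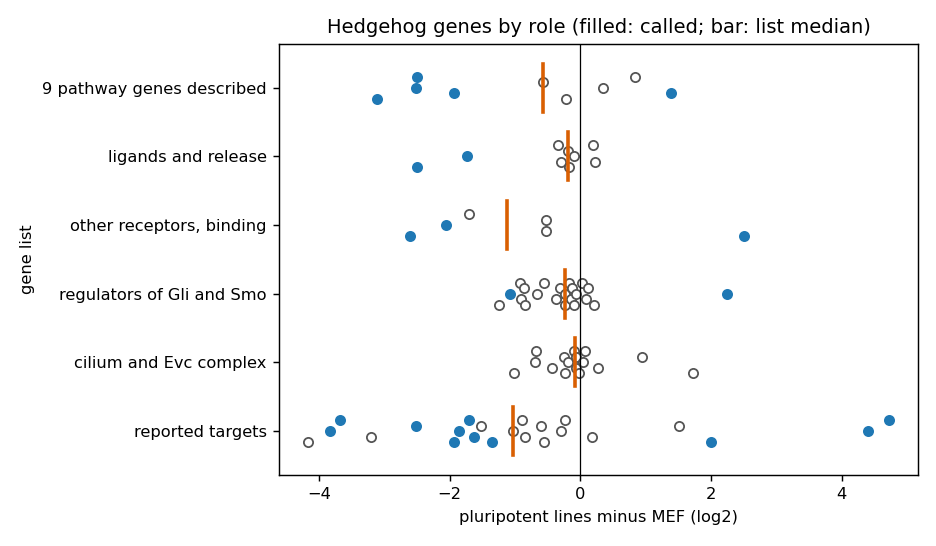
Pluripotent lines minus MEF (log2) for each measured gene by role, filled where called, with a bar at the list's median. Called genes lie on both sides of 0 among the reported targets (3 higher, 8 lower), and 0 of 16 cilium genes are filled. The cilium genes lie between -1.02 and 1.73. Over all genes 7.90% were called higher and 9.71% lower.

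Genes with the pattern most like the 3 members of largest difference were found by the root mean square distance between their values over the 4 arrays. Nearest to Gas1 were Nr2f2, an orphan nuclear receptor (distance 0.0587), Gypc (0.0629) and Sema3d, a secreted semaphorin (0.0789). Nearest to Gli3 were Bcl9l (0.0156), the kinase gene Pak3 (0.0255) and Gas2 (0.0334). Nearest to Boc were Casp8, a caspase (0.076), Slc25a24 (0.101) and Rnf217 (0.107). Boc and Smo were 0.306 apart, which placed Smo at rank 177 among all genes by likeness to Boc. With 4 arrays and 1 array apart from the others, many genes share such a pattern.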

How the data were processed

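The deposited table holds log2 values of 28853 probe sets on 4 arrays, made by the authors with GCRMA per the submitters' processing notes. Its version, the log base and the centring step are not given in the sources used here, and log base 2 was assumed, so every difference and fold rests on that. All 28853 probe sets had a median of 0 (tolerance 1e-06) across arrays. Probe sets with 1 gene symbol in the platform annotation (21789, against 1621 with several and 5443 with none) were averaged to 19938 genes. No filter on low values could be set without levels. Differences were tested with limma 3.58.1 (R 4.3.3; lmFit and eBayes), and p-values were adjusted by Benjamini-Hochberg across the whole gene table. The fit with 2 groups (MEF, lines) had 2 residual degrees of freedom and that with 3 groups 1. The replicates were different cell lines and no repeat cultures are described, so a p-value reflects only the spread among these samples, which may be technical, and the number of arrays limits the precision. Simulated data were also run through the scripts, with MEF given the same spread as the lines. That run does not test whether the MEF spread is in fact the same. Named genes were all 9 members, up to 6 called genes per pathway list by size, the ligands, Sufu, Kif7 and the 3 nearest genes for 3 members. Of 83 pathway genes listed 76 were measured. The members and lists were chosen with earlier results of these data known. Alternatives were array scaling, probe set choice, a robust prior, leaving out each line, the fold minimum and the groups in the fit. Marker lists covered fibroblast, pluripotent, primitive endoderm, chondrocyte, smooth muscle, neural, endothelial, macrophage and skeletal muscle cells.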

Additional observations from a re-analysis of the deposited data

Results flagged for a closer look

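Shh, the ligand gene, was higher on the ES array than on MEF by 0.24 log2, while it was below MEF on both iPS arrays, by -0.16 log2 for iPS 178B5 and -0.37 log2 for iPS 492B4. It was listed because both iPS lines moved one way and ES the other. The difference itself, iPS minus ES, was -0.51 log2 (95% interval -0.96 to -0.05) and did not pass limma's test after adjustment (adjusted p = 0.298).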

How the results depend on the processing

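Of 160 counts of called genes recomputed under other settings, 139 stayed within 1.5 times the reported count. Of 448 values of single genes 435 kept their direction and side of the threshold. Some of these could not move. Leaving out ES left iPS against MEF as it was, and leaving out MEF left iPS against ES as it was. With no minimum difference the fit was the same, so every single difference stayed. These totals are therefore not a measure of robustness. Leaving out a line, the counts of the 9 genes against MEF ranged from 0 to 1 higher and 3 to 4 lower, with the lowest counts without iPS 178B5, where calls over all genes went from 3512 to 1357 (613 higher, 744 lower). Over the same omissions ligands and release ranged from 1 to 2 lower, other receptors from 0 to 1 higher, regulators from 0 to 1 higher and 0 to 2 lower, cilium genes from 0 to 1 higher and 0 to 1 lower, and targets from 4 to 11 lower. Over all genes these omissions gave 613 to 1981 higher and 744 to 2235 lower. Among genes with 1 probe set 1 of the ligand and release genes was lower, with 1849 lower over all such genes. With equal array medians 0 other receptors and 1 cilium gene were higher, beside 1700 of all genes. With reference gene centring 6 regulators and 1 cilium gene were lower, beside 2555 of all genes. With no minimum difference 6 regulators were lower, and 1 cilium gene was higher and 1 lower, beside 2158 higher and 2594 lower of all genes. With 3 groups in the fit 2 regulators were lower, and 1 cilium gene was higher and 1 lower, beside 1916 higher and 2223 lower of all genes. The difference of Gli2 between iPS and MEF turned to -0.02 log2 with reference gene centring, that of Boc between iPS and ES to 0.01 log2 with equal array medians, and that of Shh between the lines and MEF ranged from -0.27 to 0.04 log2 when a line was left out, the latter without iPS 492B4. The cause of these changes was not tested. Each of the 9 genes had 1 probe set, so the choice of probe set left their values as they were. The MEF array could not be left out of any comparison with MEF. In the fit with 3 groups, leaving out an iPS line left no residual degrees of freedom. No paired analysis was possible because each group holds its own cell lines and the labels give no replicate numbers. Signal over background could not be used as a limit, since the table holds no levels.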

Other observations

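The other marker lists gave these values against MEF, where 7.90% of all genes were called higher and 9.71% lower. Of 6 chondrocyte markers 3 were lower by limma's test, among them Sox9 at -2.04 log2 and Col2a1 at -1.17 log2. Acan, at 0.79 log2, and Matn1, at 0.27 log2, lay above 0 and were not called. Of 5 smooth muscle markers 3 were lower, with Cnn1 at -4.13 log2 and Myh11 at -2.13 log2. Des, at 0.89 log2, lay above 0 and was not called. Of 6 neural markers 1 was lower, Map2 at -2.41 log2, while 3 of the 6 lay above 0. Of 4 skeletal muscle markers 1 was lower, Acta1 at -2.64 log2, and all 4 lay below 0. Of 5 endothelial markers 1 was higher, Pecam1 at 4.23 log2, a gene that ES cells also express, and 1 of the 5 lay below 0. Of 5 macrophage markers 1 was higher, Laptm5 at 3.11 log2, while 3 of the 5 lay below 0. Of 8 primitive endoderm markers 0 were called, with Gata6 at 1.62 on iPS 178B5, 0.96 on iPS 492B4 and -1.79 on ES. That count pools iPS and ES, which moved apart on this list. The median difference from MEF was 1.25 log2 in iPS, with 7 of 8 above 0, and -0.12 log2 in ES, with 4 of 8 above 0.

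Of the 23 reported target genes 4 were called in 1 of the 2 comparisons of iPS and of ES with MEF. Over all genes 21.1% were called for iPS and 20.0% for ES. The share of all genes called in only 1 of the 2 was not counted, so no result about the targets is drawn from the 4. Grem1, a BMP antagonist gene, and the cyclin genes Ccnd1 and Ccnd2 were called for iPS and not for ES. Grem1 was -5.18 log2 in iPS and -2.10 log2 in ES, Ccnd1 -1.88 and -0.80 log2, and Ccnd2 -2.80 and -1.94 log2. By limma the adjusted p for ES was close to the threshold for Ccnd2 (0.0515) and Grem1 (0.0617), and 0.264 for Ccnd1. The forkhead gene Foxf2 was called for ES, at -1.01 log2, and at -0.83 log2 in iPS it was under the fold minimum. The difference between iPS and ES was -3.08 log2 for Grem1 (adjusted p = 0.15), -1.08 log2 for Ccnd1 (0.31), -0.86 log2 for Ccnd2 (0.405) and 0.18 log2 for Foxf2 (0.636), and 0 of these passed limma's test. Grem1, Ccnd1, Foxf2, Mks1, Evc and Gpr161 were named after their values were seen.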
